A study of Mus musculus with 12 samples.

Results

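Cortex of rTg4510 mice that express human tau was compared with cortex of nontransgenic mice, both on normal feed. The comparison took 6 of the 12 Clariom D arrays of the series, 3 labelled Tg + Veh and 3 labelled Non + Veh. They were chosen by these labels alone. A row of the data is a transcript cluster, a set of probes for one transcript unit, and its value is a log2 intensity after RMA normalization. Rows annotated with 1 gene symbol were tested if any of the 11 fitted arrays passed the floor stated in the methods, a log2 intensity of about 6.8. These were 12745 rows, which stood for 12564 symbols.

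Tg + Veh mice carried Tg(Camk2a-tTA)1Mmay and Tg(tetO-MAPT*P301L)4510Kha. They made human tau with the P301L mutation at about 13 times the level of mouse tau, according to the labels. The 3 Tg + Veh arrays were from 2 males and 1 female. Non + Veh mice were wild type littermates on the FVB/NJ background, to which the transgenic line had been backcrossed for at least 5 generations, and their 3 arrays were from 1 male and 2 females. Both groups ate normal feed with 0 ppm doxycycline for 35 days, beginning at an age of 3.5 months. Another Tg + Veh array from a female (Tg + Veh 4) failed the quality control of the study and served only as a check. The other groups, Tg + Dox (3 arrays) and Non + Dox (2 arrays), ate 200 ppm doxycycline and shared the estimate of the spread. Whether an array held RNA of a single mouse or of several was not stated in the labels or methods. The p-values therefore measure the spread between arrays.

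Tau is a microtubule-binding protein of neurons that forms filaments when mutated or strongly overexpressed. In this model the tetracycline transactivator is made under the Camk2a promoter, so the transgene is active in excitatory neurons of the forebrain and not in glia. Microglia take up debris and synapses with the help of complement and Trem2, astrocytes respond to injury by making Gfap and other filament proteins, and oligodendrocytes form myelin. The arrays measured RNA of the whole tissue, in which more cells of a type and more RNA per cell cannot be told apart.

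The genotype labels were checked first. Fgf14, a regulator of sodium channels whose gene the tau transgene disrupts in this line, had a log2 intensity of 11.13, 11.26 and 10.98 on the Tg + Veh arrays, against 12.29, 12.17 and 12.01 on the Non + Veh arrays. The groups did not overlap, and Fgf14 fell by 1.03 on the log2 scale (standard error 0.11, adjusted p = 0.00466 from limma with Benjamini-Hochberg adjustment over all rows). The tTA transgene lies in the region of Wdr60, Esyt2 and Ptprn2, and these genes went against the label of 1 Non + Veh array. Esyt2, a membrane tether of the endoplasmic reticulum, was at 9.45, 9.53 and 9.63 on the Tg + Veh arrays, against 10.86, 10.90 and 9.60 on the Non + Veh arrays. Ptprn2, a protein of secretory vesicles, was at 10.33, 10.20 and 10.22 on the Tg + Veh arrays, against 11.67, 11.85 and 10.44 on the Non + Veh arrays. Non + Veh 3 was thus at the level of the Tg + Veh arrays in Esyt2 and close to it in Ptprn2, and counts are also given without it. Mapt, the mouse tau gene, was at 10.02, 9.88 and 9.84 on the Tg + Veh arrays, against 9.79, 9.83 and 9.83 on the Non + Veh arrays. Its difference of 0.10 was not called (adjusted p = 0.529), and whether its probes also bind the human transcript was not tested. Transcripts that differ between the sexes followed the sex labels on all 12 arrays.

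Markers of cortical cells were checked next. Neuronal markers were bright, with Snap25, a fusion protein of synaptic vesicles, at 18.37, 18.34 and 18.25 on the Tg + Veh arrays, against 18.43, 18.70 and 18.35 on the Non + Veh arrays. Slc17a7, the glutamate transporter of excitatory vesicles, was at 14.32, 14.21 and 14.17 in Tg + Veh and 14.36, 14.48 and 14.34 in Non + Veh, and Gad1, the enzyme that makes GABA, at 11.71, 11.90 and 11.64 in Tg + Veh and 11.60, 11.63 and 11.67 in Non + Veh. Rbfox3, a splicing factor of mature neurons, was at 11.39, 11.28 and 11.24 in Tg + Veh and 11.43, 11.66 and 11.39 in Non + Veh. None of these neuronal markers passed the test. The markers Aldh1l1, Slc1a3 and Aldoc of astrocytes, Csf1r and Cx3cr1 of microglia and Mog, Mag, Mobp and Cldn11 of oligodendrocytes were above the filter. Gja1 of astrocytes, P2ry12 and Tmem119 of microglia and Cspg4 of oligodendrocyte precursors were below it on every array of the fit. So were the lymphocyte markers Cd3e, Cd8a and Cd79a and the monocyte receptor Ccr2.

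Most of the rows called were higher in Tg + Veh. Of the 12745 rows, 232 rose in Tg + Veh over Non + Veh, or 1.82%, and 17 fell, or 0.133%, which made 249 called rows or 1.95%. The call rule was an adjusted p under 0.05 in limma. The 3 Tg + Veh arrays lay beyond the 3 Non + Veh arrays in all 249 called rows, and in 18.7% of all rows tested, higher in 13.4% and lower in 5.29%. Of the rows that rose, 51 rose at least 2-fold and 11 at least 4-fold, and the median log2 change was 0.56. Of those that fell, 3 fell at least 2-fold, with a median of −0.47. The median change of all rows tested was 0.02, and 59.3% of them had a higher mean in Tg + Veh. The smallest change called was 0.17, and the median standard error of a change was 0.08. Of the risen rows 85 belonged to at least 1 of the gene lists described here and 147 to none. Of the 232 risen rows 36 were below the floor on every Non + Veh array. They were tested because another array was above it, so rows of this kind that did not rise are missing from the counts, and the size of their rise is uncertain. An unadjusted p under 0.05 was reached by 13.6% of all rows. Lists overlap, so a gene can count in more than 1 of them.

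The number of calls depended on single arrays. The called rows numbered 69 in the fit without Non + Veh 1, 64 without Non + Veh 2, 129 without Tg + Veh 1 and 81 without Tg + Veh 2. Leaving out any other array gave 182 to 227. Without Non + Veh 3, 160 rows rose and 22 fell, and 146 of the 249 rows were called again. A set of 50 risen rows and 3 fallen rows was called in each of the 11 fits that left out 1 array. For the larger lists, a count that moved by more than 1.5 times without 1 array is given beside it. For a call that did not hold in all of these fits, the highest adjusted p is given with the array whose absence gave it. With Tg + Veh 4 added, 1 row was called, Fgf14. All 232 risen rows kept their direction. The arrays that had picked these rows still made up most of the group, so this was largely fixed in advance. On the 6 Veh arrays alone 49 rows were called, of which 44 were among the 249.

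Gfap, the intermediate filament of astrocytes, had the largest rise of all rows. Its log2 intensity was 16.80, 16.45 and 15.41 on the Tg + Veh arrays, against 11.36, 10.74 and 11.55 on the Non + Veh arrays. The lowest Tg + Veh array was far above the highest Non + Veh array, and the rise of 5.00 on the log2 scale was 32-fold (standard error 0.58, adjusted p = 0.00675). Lyz2, a lysozyme of myeloid cells whose near-identical copy Lyz1 may share its probes, followed with 9.93, 8.78 and 8.39 on the Tg + Veh arrays, against 6.11, 5.75 and 6.24 on the Non + Veh arrays, a rise of 3.00 (adjusted p = 0.00833). Ctss, a lysosomal cysteine protease of microglia, was at 13.06, 12.53 and 12.45 on the Tg + Veh arrays, against 9.60, 9.51 and 10.04 on the Non + Veh arrays and rose by 2.97 (adjusted p = 0.00602). C1qb, a chain of the first complement component, rose by 2.76, C4b, which acts next in that pathway, by 2.74, and Clec7a, a receptor for fungal glucans found on activated microglia, by 2.36. The other rows with a rise of at least 4-fold were Slc14a1, Ly86, C3ar1, Lilrb4a and Mpeg1. Lyz2, C4b, Clec7a, C3ar1, Lilrb4a and Mpeg1 were below the floor on every Non + Veh array, where values have little resolution. Of these 11 rows, Gfap, Lyz2, Ctss, C1qb, C4b, Slc14a1 and Mpeg1 were called in all 11 fits that left out 1 array. The others had an adjusted p of up to 0.0914 in Clec7a and 0.0929 in Lilrb4a without Non + Veh 1, and 0.0598 in Ly86 and 0.0601 in C3ar1 without Non + Veh 2.

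**Figure D1:**
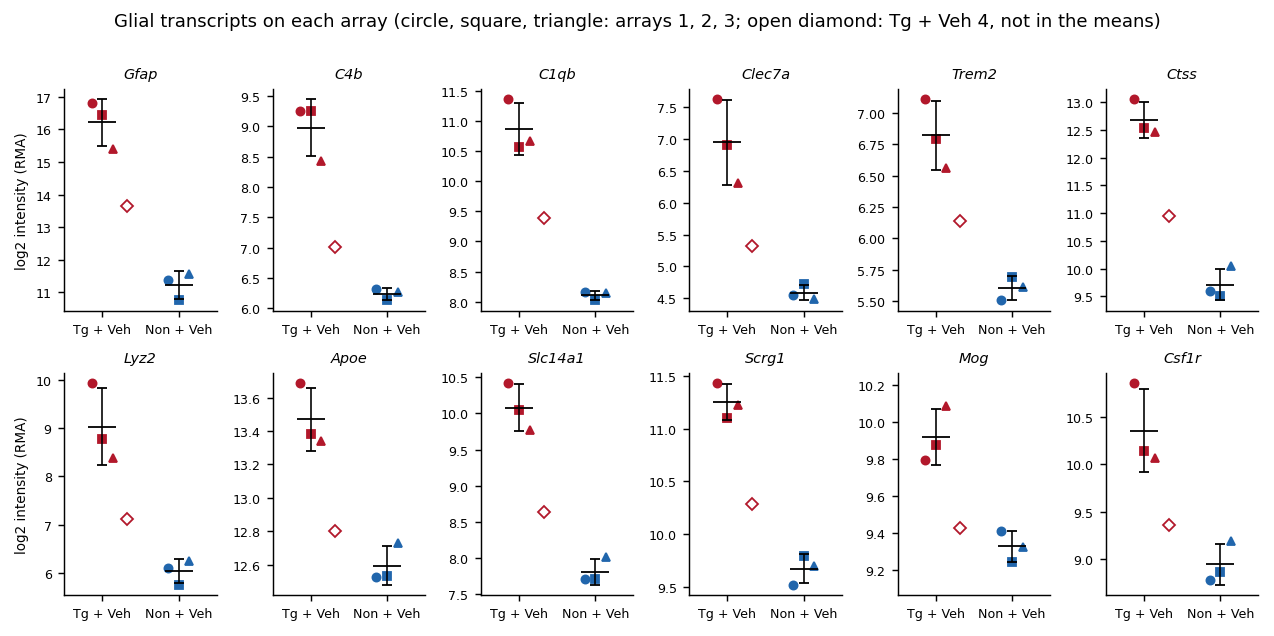
Log2 intensity of 12 glial transcripts on each array, Tg + Veh left and Non + Veh right of each panel. Bars give the mean and SD of arrays 1 to 3, and the open diamond is Tg + Veh 4. All 3 Tg + Veh arrays are above all 3 Non + Veh arrays in every panel, with Gfap at 15.41 to 16.80 against 10.74 to 11.55, and Tg + Veh 4 lies between the groups in most panels, at 13.64 in Gfap.

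Among genes of activated microglia, 11 of 19 measured members rose and none fell. Of these 19 genes 10, of which 7 rose, were below the floor on every Non + Veh array and passed the filter through another group, so this count partly follows from the filter. Of the other 9 genes 4 rose, with a median log2 change of 0.67, against 0.02 over all rows tested. The number of the 19 that rose was 5 without Non + Veh 1 or Non + Veh 2, 6 without Tg + Veh 2, and 7 without Tg + Veh 1 or Non + Veh 3. Trem2, the microglial receptor for lipids and debris, was at 7.11, 6.79 and 6.56 on the Tg + Veh arrays, against 5.50, 5.69 and 5.61 on the Non + Veh arrays and rose by 1.22 (adjusted p = 0.00758). Tyrobp, the adaptor through which Trem2 signals, was at 9.33, 8.02 and 7.93 on the Tg + Veh arrays, against 6.58, 6.51 and 6.41 on the Non + Veh arrays. It rose by 1.93 (adjusted p = 0.0336), with Tg + Veh 1 well above the other Tg + Veh arrays. Clec7a was at 7.63, 6.90 and 6.31 on the Tg + Veh arrays, against 4.55, 4.73 and 4.49 on the Non + Veh arrays. Lilrb4a, an inhibitory receptor of myeloid cells, rose by 2.04, Cd84, an adhesion receptor of leukocytes, by 1.29, and the chemokine Ccl6 by 1.16. The tetraspanins Cd9 and Cd63 rose by 1.22 and 1.04, with small spread: Cd9 was at 9.19, 8.94 and 8.94 in Tg + Veh and 7.68, 7.74 and 7.98 in Non + Veh. Cd68, a lysosomal glycoprotein of phagocytes, differed by 2.43 without passing (adjusted p = 0.0565), and Cst7, an inhibitor of cathepsins, by 1.81 (adjusted p = 0.168). Lpl, a lipase, and Fth1, a ferritin chain, differed by 0.16 and 0.08 and did not pass either.

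Homeostatic genes of microglia did not fall. Of 14 measured members 5 rose and none fell, and all 14 had a higher mean in Tg + Veh, with a median of 0.48. The number that rose was 3 without Tg + Veh 1, Tg + Veh 2, Non + Veh 1 or Non + Veh 2. Csf1r, the receptor that microglia need for survival, was at 10.85, 10.14 and 10.06 on the Tg + Veh arrays, against 8.78, 8.87 and 9.19 on the Non + Veh arrays and rose by 1.40 (adjusted p = 0.0261). Its ligand Csf1 rose by 0.53 (adjusted p = 0.0417). Csf3r, the receptor for granulocyte colony stimulating factor, rose by 1.26 from a Non + Veh mean of 6.30, below the floor. Siglech, a lectin of resting microglia, was at 8.61, 8.39 and 8.65 in Tg + Veh and 8.06, 8.10 and 8.08 in Non + Veh and rose by 0.47 (adjusted p = 0.0417). Cx3cr1, the receptor for neuronal fractalkine, had 9.42, 8.62 and 8.81 on the Tg + Veh arrays, against 7.84, 8.13 and 8.40 on the Non + Veh arrays. Its groups did not overlap, but the difference of 0.83 did not pass (adjusted p = 0.109). Tgfbr1, a receptor for TGF-beta, which keeps microglia in their resting state, rose by 0.78 (adjusted p = 0.00745), the only call among 18 genes of TGF-beta signalling. Ptprc, the leukocyte phosphatase CD45, and Plek, a cytoskeletal protein of myeloid cells, belonged to no list and rose by 1.17 and 1.47.

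Trem2, Cd9, Cd63, Tgfbr1, Ptprc and Plek kept their calls in each of the 11 fits without 1 array. The other calls had an adjusted p of up to 0.113 in Csf1r, 0.0926 in Csf3r, 0.0633 in Cd84, 0.16 in Ccl6 and 0.155 in Siglech without Non + Veh 1, and 0.124 in Tyrobp and 0.154 in Csf1 without Non + Veh 2. Markers of perivascular macrophages and monocytes were mostly below the floor, with 2 of 17 tested. One of them, Mrc1, a mannose receptor of perivascular macrophages, differed by 0.16 with overlapping groups, and the other, Ly6c2 of monocytes, by 0.02. Of 5 measured genes of cell division none was called, 1 at an unadjusted p under 0.05, against 13.6% of all rows. Pcna, the sliding clamp of DNA replication, was at 9.23, 9.12 and 9.34 in Tg + Veh and 8.99, 9.11 and 9.0 in Non + Veh.

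Complement transcripts were among those with the largest rises. Complement tags debris and synapses for removal, and C1q starts its classical pathway with chains made by microglia. Of 14 measured genes of complement and its receptors 7 rose and none fell. Of the 7, C4b, C4a, C3ar1 and Itgb2 were below the floor on every Non + Veh array and passed the filter through another group. The other 10 genes had a median change of 0.23, and 3 of them rose, the chains of C1q. The number of the 14 that rose was 4 without Tg + Veh 2, Non + Veh 1 or Non + Veh 2. C1qa was at 9.67, 9.23 and 8.98 on the Tg + Veh arrays, against 7.90, 7.79 and 7.73 on the Non + Veh arrays. C1qb was at 11.36, 10.56 and 10.66 in Tg + Veh and 8.16, 8.02 and 8.14 in Non + Veh, and C1qc at 8.69, 8.01 and 8.27 in Tg + Veh and 6.87, 6.54 and 6.49 in Non + Veh. The 3 chains rose by 1.48, 2.76 and 1.69 (adjusted p = 0.0142, 0.00493 and 0.0052), and in each of them Tg + Veh 1 was the highest array. C4b, which is cleaved after C1q binds, was at 9.26, 9.25 and 8.43 on the Tg + Veh arrays, against 6.32, 6.13 and 6.26 on the Non + Veh arrays. C4a, its near-identical neighbour, rose by 1.17, and signal shared between C4a and C4b cannot be separated with these values. C3ar1, the receptor for the C3a fragment, rose by 2.14. Itgb2, a chain of complement receptor 3, rose by 1.07 (adjusted p = 0.0496), while its partner chain Itgam differed by 0.54 (adjusted p = 0.237). The inhibitors Serping1, Cd55 and Cd59a did not pass, at 0.37, 0.10 and −0.39. The calls of C1qa, C3ar1 and Itgb2 did not hold in all fits, with an adjusted p of up to 0.0647 in C1qa, 0.0601 in C3ar1 and 0.168 in Itgb2 without Non + Veh 2.

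C1qc was also the 1 complement gene of the 9 with a sequence in the RefSeq promoter table that held the motif GAGGAAGT, a site of the myeloid factor PU.1, on either strand. Each window held 300 bases, most of them before the transcription start. The motif was in 3.69% of all promoters, and in none of the 15 promoters of activated microglia genes in the table. The C1qc promoter, chr4:136892865-136893164 on the minus strand of GRCm38.p6, is shown with the match in capitals, beginning 195 bases before the start.
C1qc: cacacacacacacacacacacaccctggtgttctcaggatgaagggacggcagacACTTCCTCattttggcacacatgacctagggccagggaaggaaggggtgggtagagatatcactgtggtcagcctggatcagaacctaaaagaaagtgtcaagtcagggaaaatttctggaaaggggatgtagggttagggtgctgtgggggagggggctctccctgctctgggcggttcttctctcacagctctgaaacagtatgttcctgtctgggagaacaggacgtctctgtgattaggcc
A match is a description of the letters and not evidence of binding.

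Receptors of phagocytes and of innate immunity gave several calls. Of 12 Fc receptor and integrin genes 5 rose, a number that was 0 without Tg + Veh 2, Non + Veh 1 or Non + Veh 2, 1 without Tg + Veh 1, 2 without Tg + Dox 2, Non + Dox 1 or Non + Dox 2, and 3 without Tg + Dox 1 or Non + Veh 3. Fcer1g, the common gamma chain of Fc receptors, was at 9.19, 8.07 and 7.95 on the Tg + Veh arrays, against 6.95, 7.05 and 6.65 on the Non + Veh arrays and rose by 1.52 (adjusted p = 0.045). Fcgr3, which binds immunoglobulin G, was at 8.36, 8.11 and 7.98 in Tg + Veh and 7.26, 7.29 and 7.33 in Non + Veh and rose by 0.85, while Fcgr1 and the inhibitory Fcgr2b differed by 0.49 and 0.31 and did not pass. Itgb5, an integrin chain, rose by 1.11. Of the 12 genes 4, of which 1 rose, were below the floor on every Non + Veh array. The other 8 had a median change of 0.44. Of 9 genes of Toll-like receptor signalling 2 rose. They were Ly86, a partner of the receptor Cd180, by 2.18 and Unc93b1, which carries intracellular Toll-like receptors to endosomes, by 0.84. Of the 9 genes 4, Unc93b1 among them, were below the floor on every Non + Veh array and passed the filter through another group. The other 5 had a median change of 0.29. Cd180 and Tlr7 themselves differed by 1.62 and 0.89 (adjusted p = 0.0561 and 0.0549). Mpeg1, which forms pores in engulfed bacteria, was at 8.80, 8.43 and 8.15 on the Tg + Veh arrays, against 6.48, 6.35 and 6.47 on the Non + Veh arrays and rose by 2.02 (adjusted p = 0.00675). Mpeg1 alone of these kept its call in all 11 fits, and the others had an adjusted p of up to 0.143 in Fcer1g, 0.0972 in Fcgr3, 0.106 in Itgb5 and 0.112 in Unc93b1 without Non + Veh 1, and 0.0598 in Ly86 without Non + Veh 2.

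Antigen presentation gave 1 call and interferon response genes none. B2m, the light chain of MHC class I, was at 14.49, 13.80 and 13.48 on the Tg + Veh arrays, against 12.81, 12.45 and 12.78 on the Non + Veh arrays and rose by 1.24 (adjusted p = 0.039, and up to 0.157 without Non + Veh 2). The class I heavy chains H2-D1 and H2-K1 differed by 0.45 and 0.33 without passing (adjusted p = 0.0903 and 0.0716). Of 5 interferon response genes above the filter none was called, 2 at an unadjusted p under 0.05, against 13.6% of all rows. The largest difference of the 5 was 0.47 in Ifit3, an antiviral protein. All 5 of them held the core of the interferon-stimulated response element in the promoter window, against 3.99% of all promoters. Of 8 chemokines, cytokines and receptors 2 rose, Ccl6 and Il13ra1. Of the 8 genes 3, Ccl6 among them, were below the floor on every Non + Veh array. The other 5 had a median change of 0.01. Il13ra1, a chain of the receptor for interleukin 13, rose by 0.57 (adjusted p of up to 0.0565 without Non + Veh 2). Ccl3, a chemokine of activated microglia, was at 7.31, 6.55 and 6.23 on the Tg + Veh arrays, against 5.17, 5.16 and 5.18 on the Non + Veh arrays, a difference of 1.53 that did not pass (adjusted p = 0.0588). Most cytokine genes of the list stayed below the filter, since 8 of its 32 members were tested.

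Lysosomes digest what phagocytes take up. Of 14 cathepsins and cystatins 8 rose and none fell, with a median of 0.69. Of the 14 genes 2, of which Ctsh rose, were below the floor on every Non + Veh array. The other 12 had a median change of 0.64, and 7 of them rose. The number of the 14 that rose was 3 without Non + Veh 1 or Non + Veh 2, and 5 without Tg + Veh 2. Ctsz, an exopeptidase, was at 10.60, 9.98 and 9.94 on the Tg + Veh arrays, against 8.48, 8.39 and 8.22 on the Non + Veh arrays and rose by 1.81 (adjusted p = 0.0102). Ctsc, Ctsh, Ctsl and Ctso rose by 1.06, 0.87, 0.77 and 0.48, and Lgmn, an asparagine-specific protease, by 0.71. Cst3, a secreted inhibitor of these proteases, was one of the brightest rows, at 16.71, 16.58 and 16.43 on the Tg + Veh arrays, against 15.83, 15.89 and 16.02 on the Non + Veh arrays, and rose by 0.66 (adjusted p = 0.00758). Ctsb differed by 0.56 (adjusted p = 0.263). Ctse, an aspartic protease outside the list, was at 7.15, 6.38 and 5.71 in Tg + Veh and 4.37, 4.78 and 4.62 in Non + Veh and rose by 1.82 (adjusted p = 0.0342). Of these arrays only Tg + Veh 1 was above the floor, so the size of its rise is uncertain. Ctss, Ctsz and Cst3 kept their calls in all 11 fits, and the others had an adjusted p of up to 0.0614 in Ctsl, 0.144 in Ctso and 0.142 in Ctse without Non + Veh 1, and 0.0549 in Ctsc and 0.0538 in Ctsh without Non + Veh 2.

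Of 22 lysosomal hydrolases 3 rose, with a median of 0.13, a number that was 1 without Tg + Veh 1, Tg + Dox 2, Non + Veh 1, Non + Veh 2, Non + Veh 3, Non + Dox 1 or Non + Dox 2. Man2b1, which trims mannose, was at 8.94, 8.28 and 8.10 on the Tg + Veh arrays, against 7.32, 6.85 and 7.18 on the Non + Veh arrays and rose by 1.32 (adjusted p = 0.0351). Hexa, a chain of hexosaminidase, rose by 1.10 and Gusb, a glucuronidase, by 0.71. Gusb was below the floor on every Non + Veh array. Grn, a lysosomal growth factor, was at 9.29, 8.43 and 8.21 on the Tg + Veh arrays, against 7.48, 7.93 and 7.70 on the Non + Veh arrays, and its difference of 0.94 did not pass (adjusted p = 0.186). Of 22 proteins of the lysosomal membrane and the proton pump 5 rose, a number that was 2 without Non + Veh 1 or Non + Veh 2, and 3 without Tg + Veh 2. Lamp2, a major membrane glycoprotein, was at 12.66, 12.77 and 12.58 on the Tg + Veh arrays, against 12.01, 11.97 and 12.05 on the Non + Veh arrays and rose by 0.66 (adjusted p = 0.00466). Lamp1 rose by 0.57, Laptm5, found in leukocytes, by 1.14, and Scarb2, the carrier of glucocerebrosidase, by 0.42. Laptm5 was below the floor on every Non + Veh array. Subunits of the proton pump did not pass, between −0.08 in Atp6v0a1 and 0.11 in Atp6v1h. Gusb, Lamp2 and Cd63 kept their calls in all 11 fits, and the others had an adjusted p of up to 0.126 in Hexa, 0.112 in Lamp1, 0.113 in Laptm5, 0.113 in Lgmn and 0.113 in Scarb2 without Non + Veh 1, and 0.143 in Man2b1 without Non + Veh 2.

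The CLEAR motif GTCACGTG, bound by the lysosomal factor Tfeb, was in the promoter windows of 2 of 11 cathepsins and cystatins, 1 of 20 hydrolases and 4 of 19 membrane and pump proteins, against 2.55% of all promoters. Among them Lgmn and Lamp1 rose. Both windows are shown, from GRCm38.p6, with the match in capitals: Lgmn, chr12:102439043-102439342 on the minus strand, 51 bases before the start, and Lamp1, chr8:13158911-13159210 on the plus strand, 28 bases before it.
Lgmn: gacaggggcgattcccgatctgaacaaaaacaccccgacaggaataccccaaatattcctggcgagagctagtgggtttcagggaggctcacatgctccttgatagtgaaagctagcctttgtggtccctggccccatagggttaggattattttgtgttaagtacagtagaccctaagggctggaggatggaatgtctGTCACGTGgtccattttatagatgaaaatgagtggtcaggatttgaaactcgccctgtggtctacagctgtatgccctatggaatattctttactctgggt
Lamp1: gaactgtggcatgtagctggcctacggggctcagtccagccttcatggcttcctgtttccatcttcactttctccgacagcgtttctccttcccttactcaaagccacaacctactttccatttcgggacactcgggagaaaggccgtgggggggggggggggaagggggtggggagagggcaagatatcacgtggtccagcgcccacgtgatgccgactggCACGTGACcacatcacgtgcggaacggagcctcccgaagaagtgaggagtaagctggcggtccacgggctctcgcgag
Mcoln1, a calcium channel of the lysosome that also held the motif, differed by −0.07 and was not called.

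Astrocytes supply other brain cells with cholesterol on Apoe particles. Apoe, the main lipid carrier made by astrocytes and microglia, was at 13.69, 13.38 and 13.34 on the Tg + Veh arrays, against 12.53, 12.53 and 12.73 on the Non + Veh arrays and rose by 0.88 (adjusted p = 0.00552). Abca1, which loads Apoe with cholesterol, was at 9.99, 9.65 and 9.25 on the Tg + Veh arrays, against 8.17, 8.25 and 8.38 on the Non + Veh arrays and rose by 1.36 (adjusted p = 0.00675). They were the only calls among 16 genes of lipid handling, of which 15 had a higher mean in Tg + Veh, with a median of 0.29. Both kept their calls in all fits without 1 array, and the number that rose was 5 without Tg + Veh 3. Of 18 genes of cholesterol synthesis 17 had a lower mean and 1 fell, Nsdhl, a sterol dehydrogenase, at 8.24, 8.50 and 8.41 on the Tg + Veh arrays, against 8.85, 8.68 and 8.81 on the Non + Veh arrays (adjusted p = 0.0324, and up to 0.138 without Non + Veh 1). The list median was −0.12, against 0.02 over all rows. Hmgcs1 and Idi1 of the same pathway differed by −0.45 and −0.40 with overlapping arrays.

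Other genes of reactive astrocytes rose beside Gfap. Of 12 measured members 6 rose and none fell, with a median of 0.54. The number that rose was 1 without Non + Veh 1 or Non + Veh 2, 2 without Tg + Veh 1 or Tg + Veh 2, and 3 without Non + Veh 3. Of the 6, 2 were below the floor on every Non + Veh array, and the 9 members above it there had a median of 0.37. Vim, an intermediate filament that pairs with Gfap, was at 9.80, 9.93 and 8.94 on the Tg + Veh arrays, against 8.10, 7.98 and 8.04 on the Non + Veh arrays and rose by 1.52 (adjusted p = 0.028). Serpina3n, a secreted protease inhibitor, was at 14.74, 14.68 and 13.80 on the Tg + Veh arrays, against 12.82, 12.89 and 12.90 on the Non + Veh arrays and rose by 1.54. Osmr, the receptor for oncostatin M, rose by 1.59, Cd44, a receptor for hyaluronan, by 0.63, and Stat3, the factor that cytokine receptors of this family activate, by 0.54. In Vim and Serpina3n Tg + Veh 3 was about 1 log2 unit below the other Tg + Veh arrays. Osmr and Stat3 were the 2 calls among 9 genes of gp130 and Stat3 signalling. Il6st, the gp130 chain itself, differed by 0.63 (adjusted p = 0.0969), and the other 6 members lay between 0.00 and 0.17.

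The Gfap promoter was the 1 of 10 in this list that held TTCCNGGAA, the palindrome bound by Stat factors, against 1.35% of all promoters. Its window, chr11:102897151-102897450 on the minus strand of GRCm38.p6, is shown with the match in capitals, 2 bases before the start listed by RefSeq.
Gfap: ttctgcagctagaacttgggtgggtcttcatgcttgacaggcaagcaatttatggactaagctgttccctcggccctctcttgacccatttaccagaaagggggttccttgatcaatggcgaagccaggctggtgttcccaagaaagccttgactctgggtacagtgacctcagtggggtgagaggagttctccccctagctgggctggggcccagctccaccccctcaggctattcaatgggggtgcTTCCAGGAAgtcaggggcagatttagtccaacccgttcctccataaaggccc

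Astrocytes clear glutamate, potassium and water from the space between cells. Of 29 measured genes of their transport, junctions and enzymes 12 rose, none fell and 28 had a higher mean, with a median of 0.38. The number that rose was 3 without Non + Veh 1 or Non + Veh 2, 4 without Tg + Veh 2, and 5 without Tg + Veh 1. Slc14a1, a urea transporter, had the largest rise of the list, at 10.42, 10.05 and 9.78 on the Tg + Veh arrays, against 7.71, 7.71 and 8.01 on the Non + Veh arrays, or 4.84-fold (adjusted p = 0.00385). Mlc1, a membrane protein of astrocyte endfeet, was at 12.11, 11.91 and 11.84 in Tg + Veh and 11.17, 11.12 and 11.10 in Non + Veh and rose by 0.82 (adjusted p = 0.00466). The glutamate transporters Slc1a3 and Slc1a2 rose by 0.40 and 0.32 (adjusted p = 0.0314 and 0.02). F3, tissue factor, rose by 0.78, S100b, a calcium-binding protein, by 0.63, and Sox9, the transcription factor that marks astrocyte nuclei, by 0.49. Aldh1l1, a folate enzyme used as an astrocyte marker, was at 7.94, 7.88 and 7.86 in Tg + Veh and 7.64, 7.39 and 7.59 in Non + Veh and did not pass (adjusted p = 0.0656). Kcnj10, a potassium channel of endfeet, differed by 0.66 (adjusted p = 0.0585). Mt2, a metallothionein, was at 17.39, 17.54 and 17.03 on the Tg + Veh arrays, against 16.20, 16.18 and 16.37 on the Non + Veh arrays and rose by 1.07 (adjusted p = 0.00779), while its close relative Mt1 differed by 0.56 (adjusted p = 0.146).

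The smallest adjusted p was that of Selenop, a selenium carrier, which was at 8.86, 8.80 and 8.91 on the Tg + Veh arrays, against 8.22, 8.15 and 8.19 on the Non + Veh arrays and rose by 0.67 (adjusted p = 0.000501). Scrg1, a gene first found in scrapie-infected brain, was at 11.43, 11.10 and 11.22 on the Tg + Veh arrays, against 9.52, 9.79 and 9.70 on the Non + Veh arrays and rose by 1.58 (adjusted p = 0.00109). Gatm, which makes the precursor of creatine, rose by 0.80 (adjusted p = 0.00109). Gatm was named here for its small p-value after this had been seen. Of the astrocyte and neighbouring genes named, Gfap, Slc14a1, Mlc1, F3, Mt2, Scrg1, Selenop and Gatm kept their calls in all 11 fits without 1 array. The others had an adjusted p of up to 0.106 in Serpina3n, 0.106 in Cd44, 0.107 in Stat3, 0.135 in Slc1a3 and 0.0948 in Slc1a2 without Non + Veh 1, 0.0538 in Osmr, 0.114 in Vim and 0.145 in Sox9 without Non + Veh 2, and 0.0602 in S100b without Tg + Veh 1.

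Oligodendrocyte transcripts rose by up to 0.90. Of 32 measured genes of mature oligodendrocytes and myelin 10 rose, none fell and 30 had a higher mean, with a median of 0.33. The number that rose was 1 without Tg + Veh 2, 3 without Non + Veh 1 or Non + Veh 2, 4 without Tg + Veh 1, and 6 without Non + Veh 3. Mog, a protein of the outer myelin surface, was at 9.79, 9.87 and 10.09 on the Tg + Veh arrays, against 9.41, 9.24 and 9.32 on the Non + Veh arrays and rose by 0.59 (adjusted p = 0.0166). Mag, an adhesion protein of the inner myelin surface, was at 10.19, 10.20 and 10.07 on the Tg + Veh arrays, against 9.70, 9.46 and 9.64 on the Non + Veh arrays and rose by 0.56 (adjusted p = 0.0148). Trf, an iron carrier made by these cells, rose by 0.90, Cldn11, a tight junction protein of myelin, by 0.75, Cnp, a myelin phosphodiesterase, by 0.25, Erbb3, a neuregulin receptor, by 0.33, and Myrf, a regulator that switches on myelin genes, by 0.31. Mbp, a core protein of compact myelin, differed by 0.15 (adjusted p = 0.517), and Mobp by 0.66 (adjusted p = 0.0927). No gene of 10 oligodendrocyte precursor markers was called, but 5 had an unadjusted p under 0.05, against 13.6% of all rows. In 5 of the 10 all Tg + Veh arrays were above all Non + Veh arrays, against 13.4% of all rows, and the list median was 0.14. Erbb3 kept its call in all 11 fits, and the others had an adjusted p of up to 0.0511 in Myrf without Non + Veh 1, 0.0756 in Mog and 0.129 in Cnp without Non + Veh 2, and 0.0654 in Mag, 0.0573 in Trf and 0.0894 in Cldn11 without Tg + Veh 2.

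**Figure D2:**
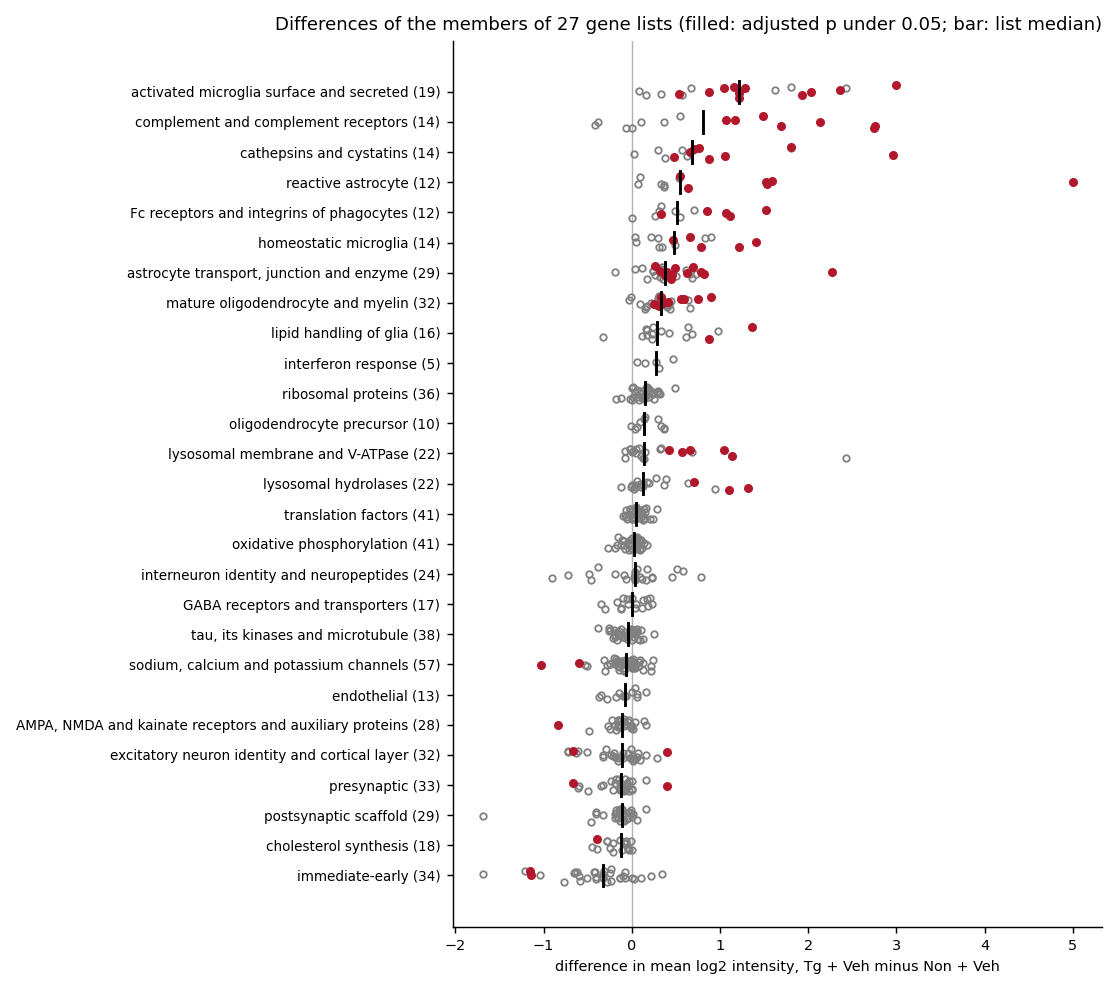
Difference in mean log2 intensity, Tg + Veh minus Non + Veh, of the members of 27 gene lists, with the number measured in brackets. Filled points passed an adjusted p under 0.05 and bars are list medians, which run from 1.22 in activated microglia, where 10 of 19 genes were below the floor in Non + Veh, to −0.32 in immediate-early genes.

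Cells of vessels and borders were set beside these glial groups. Of 13 endothelial, 5 mural and 11 fibroblast genes none was called. The groups did not overlap in 1 of these 29, a smaller share than the 18.7% of all rows. That gene was Slc2a1, the glucose transporter of the blood-brain barrier. It was at 11.47, 11.20 and 11.37 on the Tg + Veh arrays, against 11.63, 11.85 and 11.66 on the Non + Veh arrays, a difference of −0.37 (adjusted p = 0.325). Of the markers of these cells, Cldn5, Pecam1 and Cdh5 of endothelium differed by 0.16, 0.00 and −0.14, Pdgfrb and Rgs5 of mural cells by −0.02 and −0.07, and Dcn of fibroblasts by −0.06. Choroid plexus transcripts differed widely between arrays without following genotype. Ttr, the thyroid hormone carrier of the choroid plexus, was at 9.93, 15.27 and 14.41 on the Tg + Veh arrays, against 12.49, 10.87 and 14.64 on the Non + Veh arrays, so 2 Tg + Veh arrays and 1 Non + Veh array were high. Kl and Clic6, markers of the same epithelium, differed by 0.80 and 0.61 (adjusted p = 0.644 and 0.612). The part of choroid plexus in other rows was not tested.

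Immediate-early genes had mostly lower values. These genes are switched on within minutes by calcium entry during neuronal activity. Of 34 measured members 2 fell, none rose and 30 had a lower mean, with a median of −0.32, against 0.02 over all rows. In 21 of the 34 all Tg + Veh arrays were below all Non + Veh arrays, against 5.29% of all rows. Egr1, a transcription factor of active neurons, was at 9.24, 9.16 and 9.0 on the Tg + Veh arrays, against 10.23, 10.45 and 10.15 on the Non + Veh arrays and fell by 1.15, or 2.21-fold (adjusted p = 0.00466). Bhlhe40, a repressor in the clock and in activity responses, was at 9.49, 9.32 and 8.99 on the Tg + Veh arrays, against 10.51, 10.70 and 10.06 on the Non + Veh arrays and fell by 1.15 (adjusted p = 0.0257). Arc, which regulates AMPA receptor uptake at synapses, was at 11.16, 10.86 and 10.68 on the Tg + Veh arrays, against 12.50, 13.20 and 12.07 on the Non + Veh arrays. It had the largest difference of the list, −1.69, with a wide spread in both groups, and did not pass (adjusted p = 0.0665). Nr4a1, Egr3 and Egr2 differed by −1.21, −1.04 and −0.77 (adjusted p = 0.137, 0.0987 and 0.067). Fos, Fosb and Npas4 differed by −0.59, −0.51 and −0.59, and Jun, their partner in AP-1, by 0.34, none past the test. Egr1 was called in all 11 fits without 1 array, and Bhlhe40 had an adjusted p of up to 0.11 without Non + Veh 1.

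The arrays of each group also differed in these genes. The mean over the list, relative to the Non + Veh mean, was −0.33, −0.41 and −0.53 on Tg + Veh 1, 2 and 3, against −0.05, 0.21 and −0.16 on Non + Veh 1, 2 and 3. Non + Veh 2, the only male of its group, was thus the highest array, and Tg + Veh 3 the lowest. The number that fell was 1 without Tg + Veh 2, Tg + Veh 3, Non + Veh 1 or Non + Veh 2, and 4 without Non + Veh 3, and without Non + Veh 3 the median was −0.49. Of 24 immediate-early genes with a promoter sequence 1 held a CArG box, the site of serum response factor, that of Egr2, against 1.81% of all promoters, and 3 held the cyclic AMP element TGACGTCA, those of Btg2, Dusp1 and Pcsk1, against 2.03%. The Egr2 window, chr10:67537316-67537615 on the plus strand of GRCm38.p6, belongs to 1 of 5 starts listed by RefSeq and has the match in capitals, 72 bases before that start.
Egr2: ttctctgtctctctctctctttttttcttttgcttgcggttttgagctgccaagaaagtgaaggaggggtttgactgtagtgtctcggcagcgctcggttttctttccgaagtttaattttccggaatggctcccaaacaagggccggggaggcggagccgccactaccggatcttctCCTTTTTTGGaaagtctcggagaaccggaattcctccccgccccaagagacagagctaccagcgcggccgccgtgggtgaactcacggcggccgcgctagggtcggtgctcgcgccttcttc
Dusp1, a phosphatase of MAP kinases, differed by −0.32 with overlapping groups.

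**Figure D3:**
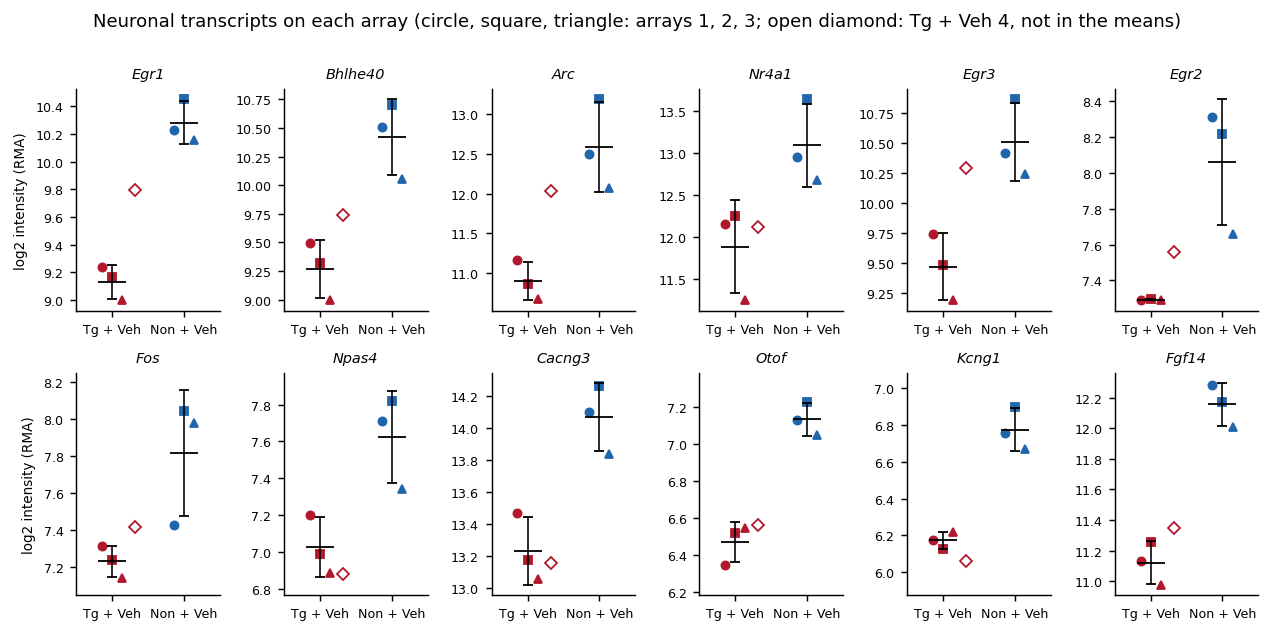
Log2 intensity of 12 neuronal transcripts on each array, Tg + Veh left and Non + Veh right of each panel, with the mean and SD of arrays 1 to 3 and Tg + Veh 4 as an open diamond. The groups do not overlap in any panel, and the widest spread within groups is in Arc and Nr4a1.

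Related genes of signalling and of the clock were set beside them. Of 19 MAP kinase phosphatases and feedback inhibitors none was called, 6 at an unadjusted p under 0.05, against 13.6% of all rows. The lowest was Dusp6 at −0.51. Of 19 clock genes Bhlhe40 alone fell, while Dbp, an output of the clock, differed by −0.99, Per1 and Per2 by −0.66 and −0.65, and Arntl, which peaks at the opposite time of day, by 0.28, none past the test. Dbp was at 9.37, 9.0 and 8.78 in Tg + Veh and 10.20, 10.24 and 9.68 in Non + Veh. The time of day at which each mouse was killed was not given in the sources used here.

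Receptors, channels and synaptic proteins had small differences, mostly lower. Of 28 genes of ionotropic and metabotropic glutamate receptors and their partners 24 had a lower mean and 1 fell. That gene was Cacng3, an auxiliary subunit of AMPA receptors, at 13.47, 13.18 and 13.06 on the Tg + Veh arrays, against 14.10, 14.26 and 13.84 on the Non + Veh arrays, a fall of 0.84 (adjusted p = 0.0241). The AMPA receptor subunit Gria3 differed by −0.27 and the NMDA receptor subunits Grin2a and Grin2b by −0.12 and −0.15, none past the test. Of 57 ion channel genes 2 fell, Fgf14 and Kcng1, a silent potassium channel subunit that averaged 6.17 ± 0.05 in Tg + Veh and 6.77 ± 0.12 in Non + Veh (SD, n = 3 each). Of 17 genes of GABA receptors and transporters none was called, 4 at an unadjusted p under 0.05, against 13.6% of all rows. Their median was 0.00, and −0.04 after median centring of the arrays. Gabra2 was the lowest at −0.35 and Gad2 the highest at 0.23. Fgf14 kept its call in all 11 fits, and the others had an adjusted p of up to 0.106 in Cacng3 without Non + Veh 1, and 0.0576 in Kcng1 without Non + Veh 2. Outside these lists, Susd2, a membrane protein, was at 6.55, 6.52 and 6.48 on the Tg + Veh arrays, against 7.16, 7.35 and 6.98 on the Non + Veh arrays and fell by 0.65 (adjusted p = 0.0113), and Chst1, which adds sulfate to keratan chains, fell by 0.46 (adjusted p = 0.0342). Susd2 and Kcng1 lay below the floor in Tg + Veh, so the size of their falls is uncertain. The predicted genes Gm15624 and Gm22597 fell by 0.73 and 0.47 (adjusted p = 0.0491 and 0.0258). Their adjusted p was up to 0.0527 in Susd2, 0.186 in Gm15624 and 0.108 in Gm22597 without Non + Veh 1, and 0.112 in Chst1 without Tg + Veh 2.

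Of 33 presynaptic genes 29 had a lower mean, 1 fell and 1 rose. Otof, a calcium sensor of vesicle fusion that marks upper layer neurons, fell by 0.67 (adjusted p = 0.00825). It was at 6.34, 6.52 and 6.54 on the Tg + Veh arrays, against 7.13, 7.23 and 7.05 on the Non + Veh arrays. The Tg + Veh values were below the floor, so the size of the fall is uncertain. Cplx3, a complexin of subplate neurons, was at 7.88, 8.12 and 7.80 in Tg + Veh and 7.63, 7.45 and 7.54 in Non + Veh and rose by 0.39 (adjusted p = 0.0491, and up to 0.183 without Non + Veh 2). Of 29 postsynaptic scaffold genes 25 had a lower mean and none was called, 7 at an unadjusted p under 0.05, against 13.6% of all rows. In 10 of the 29 all Tg + Veh arrays were below all Non + Veh arrays, against 5.29% of all rows. The median was −0.12 in both lists. Homer1, a scaffold of glutamate receptors, differed by −0.41 and Dlg4, the scaffold PSD-95, by −0.14. Syt1, the calcium sensor of fast release, was at 17.43, 17.48 and 17.40 in Tg + Veh and 17.50, 17.55 and 17.49 in Non + Veh. Camk2a, whose promoter drives the transactivator, was at 18.03, 18.01 and 18.02 in Tg + Veh and 18.13, 18.31 and 18.17 in Non + Veh and did not pass (adjusted p = 0.317).

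Markers of excitatory neurons and cortical layers were mostly lower in Tg + Veh, while most of those of interneurons were not. The lists were not compared by a test. Of 32 genes of excitatory neurons Otof fell, Cplx3 rose and 22 had a lower mean, with a median of −0.11. In 9 of the 32 all Tg + Veh arrays were below all Non + Veh arrays, against 5.29% of all rows. In 2 they were above them, against 13.4%. Calb1 and Rasgrf2 of upper layers differed by −0.73 and −0.63 (adjusted p = 0.0969 and 0.131), Cux2 by −0.20, Fezf2 and Bcl11b of deep layers by −0.33 and −0.24, and Foxp2 of the deepest layer by 0.07. Of 24 interneuron and neuropeptide genes none was called, 6 at an unadjusted p under 0.05, against 13.6% of all rows, and 8 had a lower mean. In 4 of the 24 all Tg + Veh arrays were below all Non + Veh arrays, against 5.29% of all rows, and in 5 above them, against 13.4%. Calb1 was a member of this list too. Lamp5, a membrane protein of a class of interneurons, had the largest difference, at 12.25, 12.08 and 12.09 on the Tg + Veh arrays, against 13.33, 13.29 and 12.51 on the Non + Veh arrays, or −0.90 (adjusted p = 0.199). Vip was at 10.63, 10.97 and 10.79 on the Tg + Veh arrays, against 9.79, 10.16 and 10.08 on the Non + Veh arrays, a difference of 0.79 (adjusted p = 0.212), and Crh, the corticotropin-releasing hormone, differed by 0.52 (adjusted p = 0.0575). Npy, a neuropeptide of interneurons, differed by 0.58 (adjusted p = 0.224), and Pvalb, which marks fast-spiking interneurons, by 0.16. Wfs1, a marker of hippocampal pyramidal cells, differed by −0.18 and Prkcd, a marker of thalamus and striatum, by 0.63, both short of the test.

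Genes of tau biology and translation gave no calls. Of 38 tau kinases, phosphatases and microtubule genes none passed, 5 at an unadjusted p under 0.05, near the share of 13.6% over all rows. The range was −0.38 in Tubb4a to 0.25 in Tubb2b, and 24 had a lower mean. In 10 of the 38 all Tg + Veh arrays were below all Non + Veh arrays, against 5.29% of all rows. In 1 they were above them, against 13.4%. Nefm and Nefl, neurofilament chains of axons, differed by −0.26 and −0.16. Of 41 translation factors none was called, 7 at an unadjusted p under 0.05, also near the 13.6% of all rows. Eef2, the elongation factor that moves the ribosome, was highest at 0.29, with 16.24, 15.99 and 16.03 on the Tg + Veh arrays, against 15.74, 15.86 and 15.79 on the Non + Veh arrays (adjusted p = 0.125). Eif3e, a subunit of initiation factor 3, differed by 0.12.

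Of 36 ribosomal protein genes none was called, 8 at an unadjusted p under 0.05, against 13.6% of all rows. But 33 of them had a higher mean in Tg + Veh, against 59.3% of all rows. Their median change was 0.15, 0.12 after median centring and 0.11 after quantile normalization, against 0.02 over all rows. In 13 of the 36 all Tg + Veh arrays were above all Non + Veh arrays, against 13.4% of all rows. Rpl41, the shortest ribosomal protein, was at 14.76, 14.72 and 15.09 on the Tg + Veh arrays, against 14.40, 14.28 and 14.42 on the Non + Veh arrays (adjusted p = 0.0792), and Rpl19 of the large subunit at 10.86, 10.89 and 10.94 in Tg + Veh and 10.60, 10.55 and 10.70 in Non + Veh (adjusted p = 0.115). The mean over the list was 0.12, 0.08 and 0.22 on Tg + Veh 1, 2 and 3 relative to the Non + Veh mean, 0.21 on Tg + Veh 4, and −0.07, −0.03 and 0.10 on Non + Veh 1, 2 and 3. Non + Veh 3 thus lay inside the range of the Tg + Veh arrays. Ribosomal protein genes have many pseudogenes of near-identical sequence, so their signals may hold more than 1 transcript. Rps6 and Rpl28 were not among the rows tested.

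Stress and energy genes were close to the median of all rows. Of 25 genes of the unfolded protein and integrated stress responses 1 rose, Edem1, which sends misfolded glycoproteins to degradation, at 8.38, 8.47 and 8.31 on the Tg + Veh arrays, against 7.80, 8.08 and 8.00 on the Non + Veh arrays (adjusted p = 0.039, and up to 0.127 without Tg + Veh 2). Eif2ak3, the stress kinase PERK, differed by 0.24 (adjusted p = 0.106), Atf4 by 0.06, Ddit3 by 0.00 and Hspa5, the chaperone BiP, by −0.25. Of 27 heat shock and proteasome genes Hspb8, a small chaperone, rose by 0.54 and averaged 6.93 ± 0.15 in Tg + Veh and 6.39 ± 0.14 in Non + Veh (SD, n = 3 each). Hspb8 was below the floor on every Non + Veh array, and its adjusted p was up to 0.154 without Non + Veh 1. Of 41 subunits and regulators of oxidative phosphorylation none was called and none had an unadjusted p under 0.05, with a range of −0.27 to 0.18 and a median of 0.03, which was −0.01 after median centring. Of 17 glycolytic genes none was called, 2 at an unadjusted p under 0.05, near the 13.6% of all rows.

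Galectins, S100 proteins and matrix proteins were the last groups examined. Of 12 galectins, annexins and S100 proteins 3 rose, Anxa3, S100b and Lgals1, and all 12 had a higher mean. Lgals1, a lectin of glia and vessels, was at 8.27, 8.12 and 8.32 on the Tg + Veh arrays, against 7.77, 7.62 and 7.55 on the Non + Veh arrays and rose by 0.59 (adjusted p = 0.00832). Of 25 matrix genes 4 rose, a number that was 1 without Non + Veh 1 or Non + Veh 2, and 2 without Tg + Veh 1 or Tg + Veh 2. Among them was Sdc4, a heparan sulfate receptor, at 8.65, 8.74 and 8.63 on the Tg + Veh arrays, against 7.61, 7.93 and 7.82 on the Non + Veh arrays, a rise of 0.89 (adjusted p = 0.00415). Bcan and Ncan of perineuronal nets differed by 0.14 and 0.23 and were not called. Lgals1 and Sdc4 kept their calls in all 11 fits. Of 35 semaphorins, plexins, ephrins and their receptors 1 rose, Plxnb3, against 1.82% of all rows. Plxnb3 was below the floor on every Non + Veh array. It was called in none of the 11 fits without 1 array, so no single array is named for it. Of 25 genes of iron, metallothionein and glutathione 2 rose, Mt2 and Trf.

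The 3 Tg + Veh arrays differed among themselves in a regular way. Tg + Veh 1 was the highest of the 3 in 139 of the 232 risen rows, Tg + Veh 2 in 52 and Tg + Veh 3 in 41, and Tg + Veh 3 was the lowest in 126. For activated microglia the mean over the list was 1.73, 1.16 and 0.94 above the Non + Veh mean on Tg + Veh 1, 2 and 3, against −0.02, −0.01 and 0.04 on Non + Veh 1, 2 and 3. For reactive astrocytes it was 1.20, 1.17 and 0.77, against 0.03, −0.09 and 0.06. For myelin it was 0.32, 0.41 and 0.36, against 0.06, −0.03 and −0.03. Tg + Veh 3, the lowest in both glial lists, was the only female of the 3. Sex and array cannot be told apart for a single array. With sex as a term 171 rows rose and 13 fell, and 154 of the 249 were called again.

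Tg + Veh 4 was the female array that failed quality control. Its mean for activated microglia was 0.34, for reactive astrocytes 0.29 and for myelin −0.03 relative to the Non + Veh mean. It lay above all Non + Veh arrays in 168 of the 232 risen rows, below all 3 other Tg + Veh arrays in 224, and between both groups in 160. These rows had been picked for high values on the other 3 Tg + Veh arrays. A lower value on Tg + Veh 4 is thus partly fixed by that choice. The Fgf14 value of Tg + Veh 4, 11.34, was that of a Tg array. Its endothelial mean was −0.66, against −0.01, −0.21 and −0.07 on Tg + Veh 1, 2 and 3, and its choroid plexus mean −1.55, against −1.03, 2.25 and 1.46. The part of these values in the glial differences was not tested.

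**Figure D4:**
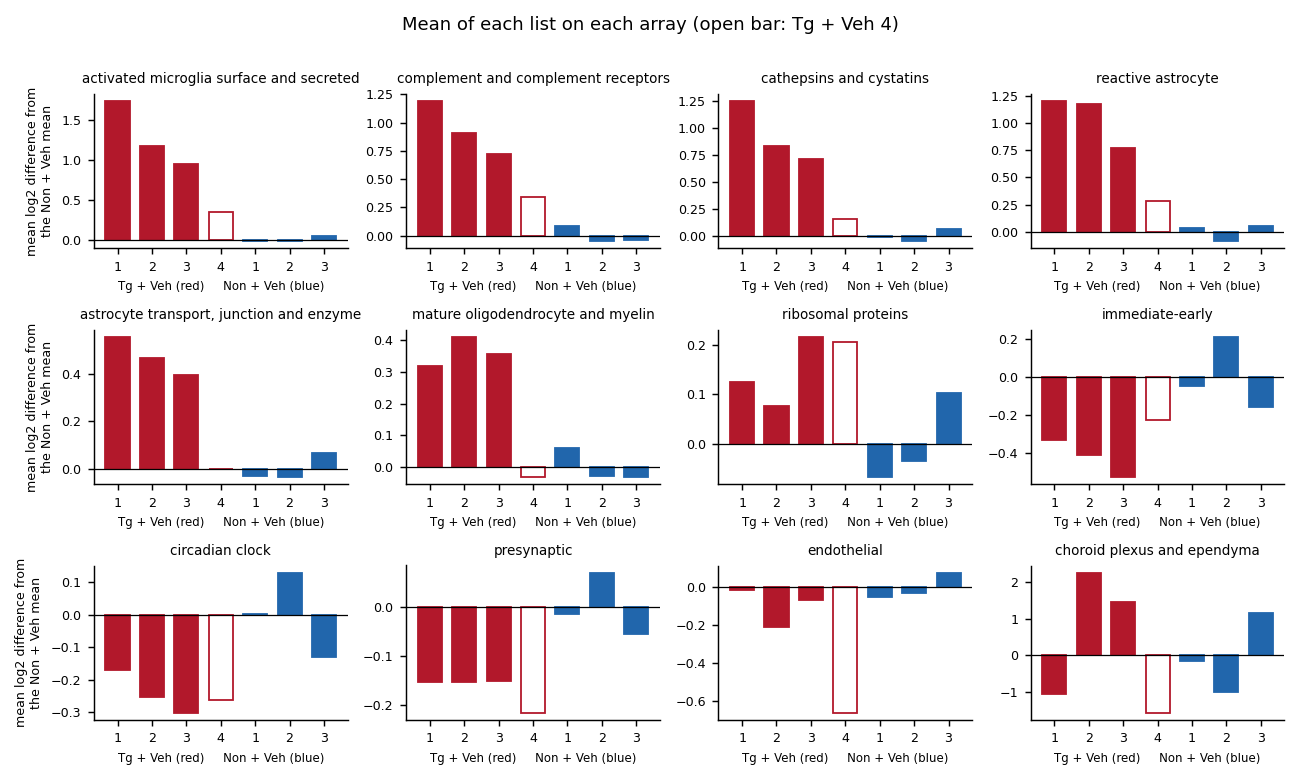
Mean log2 difference from the Non + Veh mean over the members of 12 lists, on each Tg + Veh array (red, left) and Non + Veh array (blue, right), with Tg + Veh 4 as an open bar. Axes differ between panels. Tg + Veh 1 to 3 exceed Non + Veh in the glial panels, at 0.94 to 1.73 in activated microglia, while choroid plexus does not follow genotype.

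The genotype difference was then set beside that on doxycycline feed, where the transgene is suppressed. The question was whether the difference between Tg and Non mice was the same on both feeds. The 2 differences share no arrays. The 2 Non + Dox arrays were both from males, and the Tg + Dox arrays from 1 male and 2 females. The difference on Dox feed is thus partly mixed with sex, and the values given for it are not adjusted for sex. Of the 12745 rows 0 (0%) were called in the limma interaction, with 1047 rows (8.21%) at an unadjusted p under 0.05. Without Non + Dox 2, which like Non + Veh 3 had Esyt2 at the Tg level, 12 rows were called, but Non + Dox then had 1 array, which was assumed to vary like those of the other groups. Of the 232 risen rows 195 were higher in Tg + Dox over Non + Dox too, with a median of 0.14, against 0.56 on Veh feed. Since these rows had been picked for a large difference on Veh feed, a smaller one on Dox feed is partly fixed by that choice. In the limma interaction, Scrg1 differed by 1.58 on Veh feed and 0.16 on Dox feed (interaction adjusted p = 0.0899), and Selenop by 0.67 and 0.17 (interaction adjusted p = 0.0899). Gfap differed by 5.00 on Veh feed and 2.19 on Dox feed (interaction adjusted p = 0.501). Fgf14 differed by −1.03 on Veh feed and −1.03 on Dox feed. Egr1 differed by −1.15 on Veh feed and −0.35 on Dox feed (interaction adjusted p = 0.384). Neat1, a nuclear noncoding RNA, rose by 1.02 on Veh feed, at 8.98, 8.90 and 8.56 on the Tg + Veh arrays, against 7.56, 7.95 and 7.87 on the Non + Veh arrays, and differed by −0.07 on Dox feed (interaction adjusted p = 0.281). Among the other rows of smallest interaction p, Abhd3, a lipase, rose by 0.74 on Veh feed and differed by 0.09 on Dox feed (interaction adjusted p = 0.244). Rps12-ps19, a pseudogene that shares sequence with a ribosomal protein gene, rose by 0.42 on Veh feed and differed by −0.40 on Dox feed (interaction adjusted p = 0.244).

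**Figure D5:**
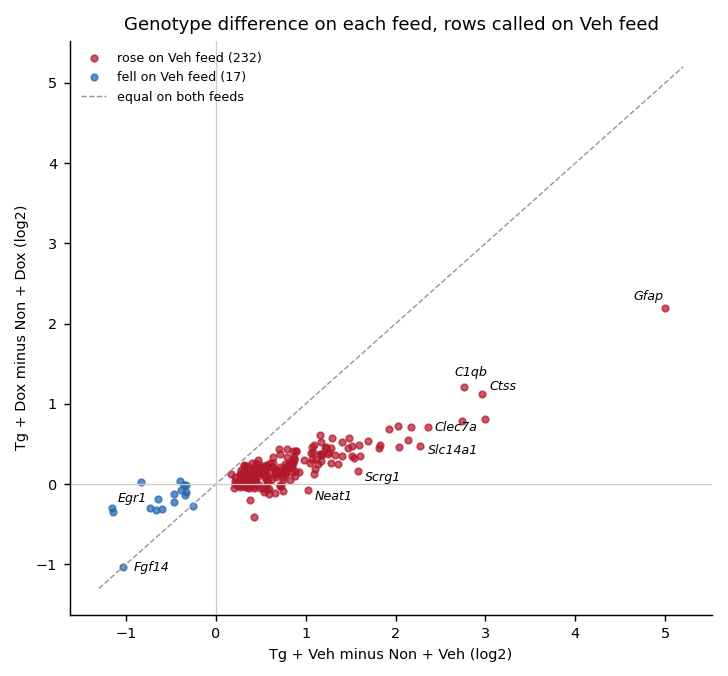
Difference between Tg and Non mice on Veh feed (x axis) and on Dox feed (y axis), in log2 units, for the 249 rows called on Veh feed. Red points rose and blue points fell on Veh feed, and the dashed line marks equal differences. Most points lie nearer to 0 on the y axis, Gfap at 5.00 and 2.19, while Fgf14 lies on the line at −1.03 and −1.03.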

How the data were processed

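Values were log2 intensities that the authors had made from Clariom D scans with RMA, which corrects background, normalizes by quantiles and summarizes probes. They were used as deposited, with the annotation given in the same table. Of 72688 rows, 65956 were transcript clusters and 30638 of these carried 1 symbol. Rows with several symbols or none were fitted separately.

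Differences were tested with limma 3.58.1 in R 4.3.3, in 1 linear model of 4 groups over 11 arrays (residual degrees of freedom 7, prior 1.97), with Benjamini-Hochberg adjustment over 12745 rows. The model was tested on simulated data. Tg + Veh 4, which failed the quality control of the study, entered as an alternative only. Precision was limited by the few arrays, and the median SD of a row was 0.0852 in Tg + Veh and 0.0714 in Non + Veh.

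Genes were named by a rule: the 20 largest rises and 10 largest falls among called rows, the largest changes of each list (up to 8 called and 4 not called members), label checks and cell type markers, the 10 rows of smallest interaction p, the pairs Lyz1/Lyz2 and C4a/C4b, and 6 translation genes. Of the 302 genes it picks, 166 are named, and 33 others were added after their values were seen (Arntl, Atp6v0a1, Atp6v1h, Bcan, Bcl11b, Btg2, Cd55, Cnp, Crh, Cux2, Dlg4, Fcgr2b, Fezf2, Fos, Fosb, Foxp2, Fth1, Gatm, Grin2a, Grin2b, Lpl, Mbp, Mcoln1, Myrf, Ncan, Nefl, Npas4, Pcsk1, Plek, Ptprc, Pvalb, Rpl19 and Slc1a2). Members and lists were chosen with earlier results of these data known. Promoter sequences came from RefSeq (GRCm38.p6), matched by symbol, and motifs were searched on both strands. A CArG box was CC, then 6 A or T, then GG. The replicate numbers of the labels did not pair the arrays. Alternatives were other filters, scalings, arrays and terms.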

Additional observations from a re-analysis of the deposited data

Results flagged for a closer look

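Among the 4 Tg + Veh arrays, 1 stood far from the others in 14 of 199 genes named and in 3 of 50 list means, by a gap above Dixon's critical value for 4 samples. Chance gives about 1 in 20 such groups where genes are not picked by these values. Tg + Veh 4 was the array concerned in 12 of these 17, with log2 intensities of 14.26 in Aldoc, 17.80 in Camk2a, 7.56 in Egr2, 13.24 in Homer1, 7.43 in Jun, 6.29 in Lpl, 7.86 in Myrf, 6.64 in Plxnb3 and 9.35 in Wfs1. Its list mean, relative to Non + Veh, was −0.0768 for oligodendrocyte precursors, −0.24 for AMPA, NMDA and kainate receptors and their partners, and −0.22 for presynaptic genes. Tg + Veh 1 stood apart in Gabra2 (14.53) and Itgam (8.21), Tg + Veh 2 in Cd55 (7.54), and Tg + Veh 3 in Nr4a1 (11.24) and Per1 (8.13). Of the 199 genes 95 were called in the fit without Tg + Veh 4, which favours close values on the other 3 Tg + Veh arrays. The rate of 1 in 20 need not hold for them.

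Rows outside the main fit also gave calls. Of 863 rows annotated with several symbols 9 rose in Tg + Veh over Non + Veh. Of 9706 rows with no symbol in the annotation 21 rose and 17 fell.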

How the results depend on the processing

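The number of rows called depended on the arrays used. With all 12 arrays 1 row was called, 0 rose and 1 fell. Leaving out 1 array gave 64 to 227 called rows, 59 to 208 that rose and 4 to 22 that fell, against 249, 232 and 17. The 6 Veh arrays alone gave 49 (40 rose, 9 fell), and 155 with array weights (135 rose). Without Non + Veh 3 and Non + Dox 2, an alternative chosen after seeing the data, 126 were called (98 rose, 28 fell). Without a floor 149 of 30638 rows were called (140 rose, 9 fell). After quantile normalization 26 fell. With sex as a term 154 of the 249 rows were called again. Median centring moved the median of all rows from 0.02 to −0.02, and called 162 risen and 24 fallen rows. In the methods' two-way ANOVA 477 rows had a genotype p of at most 0.01, and 6 passed the adjustment. The interaction gave 0 calls in every fit without 1 array but that without Non + Dox 2, with 12, where Non + Dox had 1 array. It gave 1 without Non + Veh 3 and Non + Dox 2, and 185 at the ANOVA's p of at most 0.01. Causes were not tested.

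The replicate numbers were tried as a pairing. Same-numbered Tg + Veh and Non + Veh arrays deviated together with a correlation of −0.11, 0.07 and 0.42, so the numbers did not pair them, and with the replicate block 121 rows were called (105 rose). Of 4546 values recomputed for 199 named genes, 3757 kept their direction and side of the threshold, 710 were no longer called, 43 became called and 36 turned, all in 8 genes that were not called. Leaving out 1 array gave −0.50 to 2.17 in Ttr, −0.0231 to 0.33 in Cldn5, −0.0612 to 0.0512 in Pecam1, −0.13 to 0.0817 in Pdgfrb, −0.17 to 0.00452 in Rgs5, −0.44 to 0.28 in Dcn, −0.0633 to 0.12 in Ly6c2 and −0.0676 to 0.0479 in Ddit3. With all 12 arrays Cldn5 was −0.0291, Ddit3 −0.014, Ly6c2 −0.12, Pecam1 −0.11 and Ttr −0.52. With the 6 Veh arrays weighted Dcn was 0.0546, Ddit3 −0.0178 and Ly6c2 −0.0492. Without Non + Veh 3 and Non + Dox 2 Dcn was 0.28, Ly6c2 −0.0633, Pdgfrb 0.00641 and Rgs5 0.00452. After median centring Ddit3 was −0.034, Ly6c2 −0.0122 and Pecam1 −0.0361. After quantile normalization Ddit3 was −0.027 and Pecam1 −0.0239. With sex as a term Pdgfrb was 0.00456, Pecam1 −0.00682 and Rgs5 0.0152. Of the 95 called genes 1 was called in every alternative that was fitted. Few arrays limit small differences, and values below the floor have little resolution.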
